A study of Homo sapiens with 24 samples.

Results

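Small nucleolar RNA (snoRNA) host genes are transcribed mainly to deliver snoRNAs, which are cut out of their introns and guide the chemical modification of ribosomal RNA. The 10 non-coding hosts described here are GAS5, SNHG1, SNHG3, SNHG5, SNHG6, SNHG8, SNHG12, SNHG15, SNHG16 and ZFAS1, chosen by name from the 54583 genes of the count table. They and the other gene lists were chosen with earlier results of these data known. The hosts were measured in PANC-1, an established human line grown from a pancreatic ductal carcinoma, after 6 h with DMSO (the solvent), 40 µM CID661578 or 5 µM cercosporamide, both of which bind MNK2. Cercosporamide inhibits the kinase activity of MNK2, whereas the study describes CID661578 as a compound that keeps MNK2 off the scaffold protein eIF4G and leaves its kinase activity as it is. Each treatment had 4 replicates, and total cytosolic RNA and RNA bound to more than 3 ribosomes (polysome-associated RNA) were sequenced from each, which gave 24 libraries. All libraries come from 1 cell line, and all groups share its genotype and the 6 h of treatment. The compounds were given at different doses, so values with CID661578 and with cercosporamide stand for those doses only.

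The spliced RNA that is left after the snoRNAs are removed reaches the cytoplasm, where it carries no long open reading frame. Ribosomes can still start on it, and the short reading frames end before later exon junctions, a layout that nonsense-mediated decay (NMD) recognizes. GAS5 is the known example of a host RNA that is degraded in this way and accumulates when translation or growth is arrested. Many host genes, coding and non-coding, also share with ribosomal protein genes a terminal oligopyrimidine (TOP) start, an unbroken run of C and T at the transcription start that ties the loading of ribosomes to growth signals. MNK1 and MNK2 are kinases that phosphorylate the cap-binding factor eIF4E, and both dock on eIF4G to do so. The study reports that cercosporamide also partly inhibited MNK1 and lowered the activity of other kinases in vitro. It further reports that eIF4E phosphorylation rose in PANC-1 with either compound, with cercosporamide at a higher dose than here. The experiment asked which RNAs change their association with polysomes under each compound.

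The sequence around the start of each host is shown first, since the TOP start is the feature that the hosts are known for. Each line gives 10 bases before the annotated start and 20 bases from it, on the strand of the gene, from RefSeq on GRCh38.p14. The capitals mark the unbroken C and T run that contains the first transcribed base, and a line without capitals has a purine there.
GAS5, chr1:173869026-173869055, minus strand: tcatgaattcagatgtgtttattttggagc
SNHG1, chr11:62855866-62855895, minus strand: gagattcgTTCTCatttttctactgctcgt
SNHG3, chr1:28505933-28505962, plus strand: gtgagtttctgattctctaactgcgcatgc
SNHG5, chr6:85678714-85678743, minus strand: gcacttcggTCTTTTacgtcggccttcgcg
SNHG8, chr4:118278752-118278781, plus strand: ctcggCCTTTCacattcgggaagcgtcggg
SNHG12, chr1:28581854-28581883, minus strand: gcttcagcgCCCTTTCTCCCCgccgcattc
SNHG16, chr17:76557754-76557783, plus strand: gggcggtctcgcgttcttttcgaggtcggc
ZFAS1, chr20:49278632-49278661, plus strand: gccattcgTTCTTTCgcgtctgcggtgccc
SNHG6 and SNHG15 are named without a sequence.

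A run of at least 5 pyrimidines lay over the annotated start in 5 of the 8 hosts shown, namely SNHG1, SNHG5, SNHG8, SNHG12 and ZFAS1. Over all 27305 RefSeq promoters in the same window the share was 9.8%, and over 64 ribosomal protein genes it was 71.9%. The stricter TOP form, a C at the first base followed by at least 4 pyrimidines, was present in SNHG5, SNHG12 and ZFAS1, against 4.0% of all promoters and 67.2% of ribosomal protein genes. GAS5, SNHG3 and SNHG16 have no such run over the annotated base. For SNHG12 and ZFAS1 the start shown, at 28581873 and 49278642, lies inside the RefSeq gene span. On the strand of the gene, that span begins at 28582983 for SNHG12 and at 49278178 for ZFAS1, and the sequence there is not shown. Annotated starts can differ from those a cell uses, and the starts used in PANC-1 were not measured here.

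RefSeq places 34 snoRNA genes inside the 10 hosts on the same strand. GAS5 holds 9, SNHG1 holds 8, SNHG12 holds 4, SNHG16 and ZFAS1 hold 3 each, SNHG3 and SNHG5 hold 2 each, and SNHG6, SNHG8 and SNHG15 hold 1 each. By name, 25 are box C/D snoRNAs (SNORD), which guide 2′-O-methylation, and 8 are box H/ACA snoRNAs (SNORA), which guide pseudouridylation. GAS5, SNHG1, SNHG5, SNHG6, SNHG16 and ZFAS1 hold SNORD genes, whereas SNHG3, SNHG8 and SNHG15 hold SNORA genes only. The snoRNAs themselves were barely counted. Of the 33 present in the table, 4 had no read in any library, and SNORD80 and SNORD47, both in GAS5, were the 2 that exceeded 10 counts in a library, with maxima of 38 and 12. The values below are therefore those of the spliced or unspliced host RNA and carry no measurement of snoRNA output.

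Reads counted on genes numbered 1592459 in the polysome library of cercosporamide replicate 4 and between 9268041 and 12184749 in the other 23 libraries. The epithelial markers KRT8, KRT18 and KRT19 and the mesenchymal marker VIM were abundant, with KRT8 between 11925 and 158405 counts, while KRT7 was low at 5 to 298. Defining markers of leukocytes (PTPRC, CD3E) and of beta cells (INS) were at 0 in every library, and PECAM1, VWF, HBB and GCG did not exceed 5 counts. COL1A1 lay between 3 and 82 counts, and CD68, which is not restricted to leukocytes, between 464 and 8205. Levels are given as edgeR's CPM, which are counts scaled to a common normalized library size, and compare 1 gene between libraries. They are not compared between genes, because the annotated transcript lengths of several hosts differ between RefSeq and GENCODE. No spike-in RNA is listed in the table, so each level and each change is relative to the other RNAs of the same library, and fewer copies per cell cannot be told apart from more of the other RNAs.

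The strand was ignored when the authors counted reads, and a read over 2 genes was left out. SNHG3 shares 4850 bases with RCC1 on the same strand, so its counts of at most 134 are uncertain. RCC1 itself, the exchange factor of the nuclear transport GTPase Ran, held 237 to 2462 counts. SNHG6 lies inside MCMDC2 on the opposite strand, which had 0 to 9 counts. GAS5 shares 964 bases with ZBTB37, which had 1 to 55 counts.

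In DMSO, every host that could be tested was lower in polysome-associated than in total RNA. The 10 hosts together took 0.0919% ± 0.0235 of counts in total RNA and 0.032% ± 0.00587 in polysome-associated RNA (SD, n = 4). GAS5 was 3.64-fold lower in polysomes, SNHG5 3.59-fold, ZFAS1 3.88-fold and SNHG6, the host with the lowest polysome share, 5.49-fold, whereas SNHG1 and SNHG3 were 1.5-fold and 1.57-fold lower.

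The total RNA level of GAS5 in DMSO was 157, 218, 137 and 89.2 CPM in replicates 1 to 4, against 36.9, 44.7, 45.3 and 31.8 CPM in polysomes of the same cells. SNHG5, a host of the SNORD50 pair, had 178, 435, 134 and 100.3 CPM in total RNA and 45.5, 68.7, 46.4 and 43.4 CPM in polysomes. The ranges of the fractions did not overlap for either gene, and in total RNA replicate 2 was the highest library and replicate 4 the lowest for both. SNHG16, host of the SNORD1 cluster, had 287, 234, 199 and 261 CPM in total RNA and 80.1, 88.5, 62.6 and 65.1 CPM in polysomes. SNHG15, host of SNORA9, had 173, 163, 159 and 103 CPM in total RNA and 56.5, 61.5, 51.8 and 40.3 CPM in polysomes. Both are clear of overlap between the fractions, and they varied less between replicates than GAS5 and SNHG5 in total RNA.

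ZFAS1, the antisense neighbour of ZNFX1 and host of the SNORD12 genes, had 110, 192, 83.6 and 64.7 CPM in total RNA and 18.1, 40.7, 29.5 and 23.1 CPM in polysomes. SNHG8, host of SNORA24, had 37.7, 58.2, 37.1 and 31.1 CPM in total RNA and 11.2, 15.4, 14.6 and 10.4 CPM in polysomes. SNHG6, host of SNORD87, had 20.6, 37.8, 17.8 and 17.6 CPM in total RNA and 4.53, 3.78, 4.20 and 3.70 CPM in polysomes. In all of these the highest polysome value stayed below the lowest total value. SNHG1, first known as the U22 host gene, had 22.6, 17.0, 26.4 and 11.3 CPM in total RNA and 11.04, 12.0, 20.3 and 8.26 CPM in polysomes. SNHG3 had 13.9, 12.1, 8.58 and 8.21 CPM in total RNA and 9.53, 9.20, 6.16 and 3.54 CPM in polysomes. For SNHG1 and SNHG3 the fractions overlapped across replicates, although polysomes were lower than total RNA in each of the 4 replicates. The share of all genes whose fractions do not overlap was not counted, so these ranges describe single hosts.

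**Figure D1:**
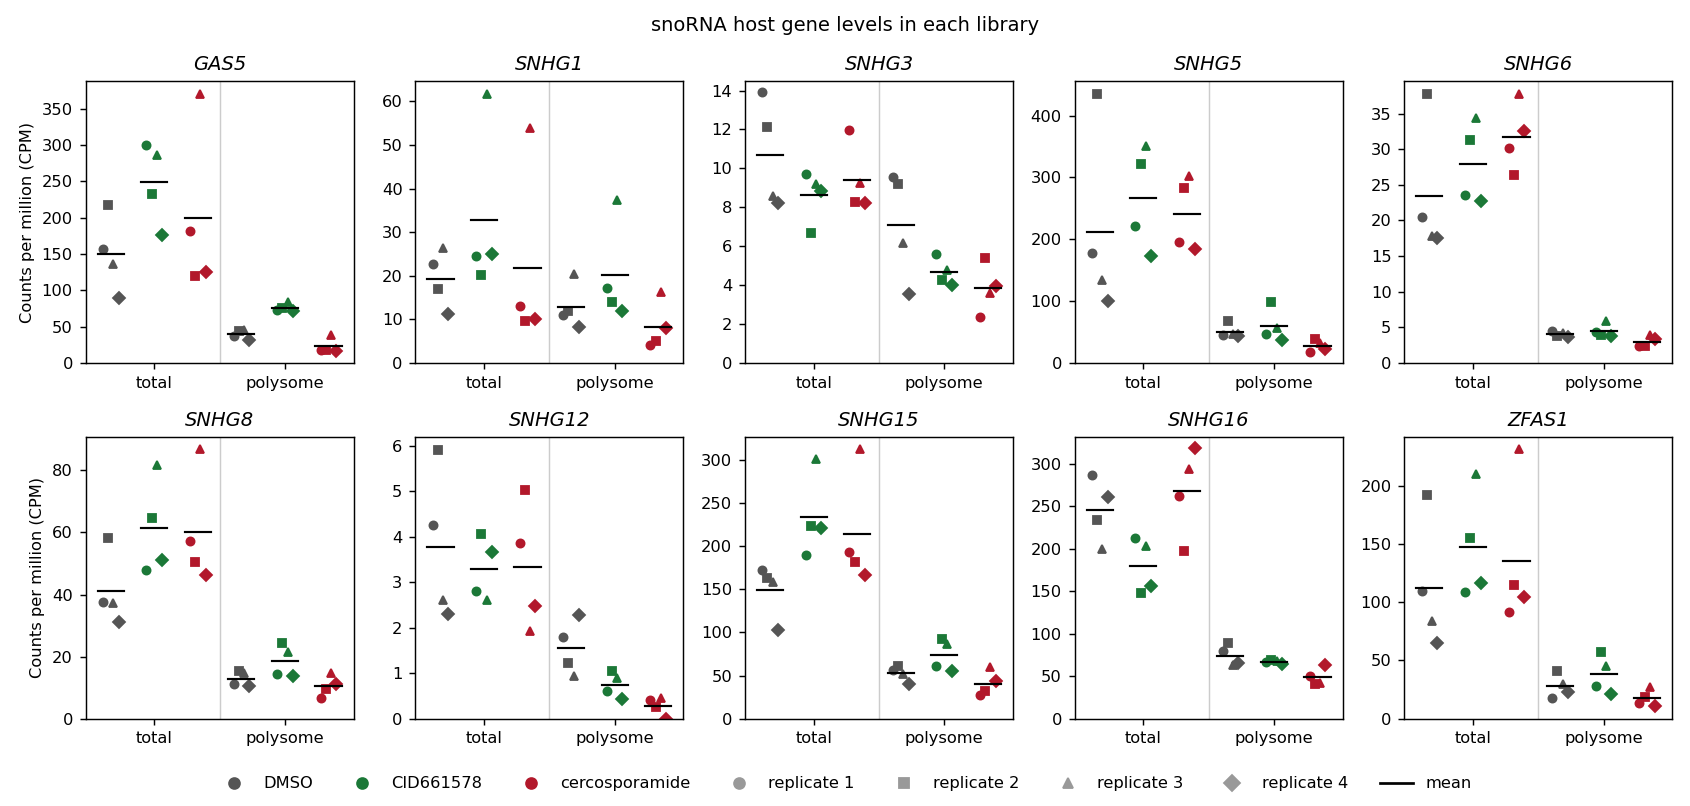
Levels of the 10 hosts in CPM on a linear axis from 0, 1 panel per gene, with total RNA on the left and polysome-associated RNA on the right. Each point is 1 library, coloured by treatment and shaped by replicate, and each black line is the mean of 4. The polysome points lie below the total RNA points in DMSO for GAS5, SNHG5, SNHG6, SNHG8, SNHG15, SNHG16 and ZFAS1, and the GAS5 polysome points stand at 72.0 to 83.6 CPM with CID661578 against 31.8 to 45.3 CPM in DMSO.

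The contrast of fractions was tested with edgeR's quasi-likelihood test across 12058 genes, with Benjamini-Hochberg adjustment over all of them. A gene was called at an adjusted p below 0.15 where it also differed more than 1.2-fold, limits taken from the study's methods. SNHG12 had no read in 1 library and was left out by the filter on zero counts, so 9 hosts were tested. All 9 were called lower in polysomes, against 29.6% of all genes tested (56% in either direction). The median log2 ratio of polysome to total RNA was -1.73 over the 9 hosts and -0.0145 over all genes. GAS5 had a log2 ratio of -1.86 ± 0.173 (SE, edgeR adjusted p = 9.57e-09) and SNHG16 one of -1.73 ± 0.164 (adjusted p = 1.34e-08). SNHG6 was lowest at -2.46 ± 0.235 (adjusted p = 1.56e-08). ZFAS1 lay at -1.96 ± 0.207, SNHG5 at -1.84 ± 0.204, SNHG8 at -1.65 ± 0.198 and SNHG15 at -1.49 ± 0.173, with adjusted p between 7.43e-08 and 4.09e-07. SNHG1 at -0.59 ± 0.225 (edgeR adjusted p = 0.0378) and SNHG3 at -0.65 ± 0.267 (edgeR adjusted p = 0.0511) stood nearest to the bulk of genes. With library sizes normalized within each fraction the median of all genes moved from -0.0145 to 0.26, and SNHG1 (-0.31, edgeR adjusted p = 0.265) and SNHG3 (-0.38, 0.258) lost their calls, as did both without the filter on zero counts (adjusted p = 0.2 and 0.235); SNHG1 lost it without replicate 1 (0.209) and SNHG3 without replicate 4 (0.345).

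The ratio of polysome CPM to total CPM within a replicate puts the hosts in order. In DMSO it was 0.192 ± 0.0621 for SNHG6 (SD, n = 4), 0.272 ± 0.0978 for ZFAS1, 0.282 ± 0.0732 for GAS5, 0.298 ± 0.118 for SNHG5, 0.305 ± 0.0555 for SNHG16, 0.322 ± 0.0549 for SNHG8 and 0.356 ± 0.0343 for SNHG15. SNHG3 and SNHG1 followed at 0.648 ± 0.148 and 0.674 ± 0.127. SNHG12 had 0.496 ± 0.344 from low counts. Neighbours in this order overlapped in range, except that the highest SNHG15 ratio (0.393) was below the lowest SNHG3 ratio (0.431).

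With cercosporamide, the polysome share of 7 hosts fell below that in DMSO. The change in translational efficiency (TE) compares the polysome-to-total ratio under a compound with that in DMSO, and it was called lower for GAS5, SNHG5, SNHG6, SNHG8, SNHG15, SNHG16 and ZFAS1. These are 7 of 9 hosts tested, against 12.6% of all genes called lower, 15.8% called higher and 28.4% called in either direction. The median log2 TE change was -0.933 over the 9 hosts and -0.000503 over all genes. SNHG1 and SNHG3 had estimates of the same sign that did not pass.

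The polysome-to-total ratio of GAS5 was 0.206 to 0.356 in DMSO and 0.102 to 0.151 with cercosporamide. In polysomes GAS5 stood at 18.7, 18.1, 38.6 and 16.6 CPM with cercosporamide, and replicate 3, the highest of these, lay within the DMSO range of 31.8 to 45.3 CPM. In total RNA it stood at 182, 120, 371 and 126 CPM, and the same replicate was again the highest. The log2 TE change of GAS5 was -1.17 ± 0.245 (SE, edgeR adjusted p = 0.00222), with replicate values of -1.20, -0.45, -1.67 and -1.43. SNHG5 had the lowest estimate, -1.26 ± 0.286 (edgeR adjusted p = 0.00445). Its polysome level was 18.5, 39.0, 32.8 and 23.2 CPM, below all 4 DMSO libraries (the share of all genes doing so was not counted). Its total level of 196, 283, 302 and 184 CPM lay within the DMSO range. The SNHG5 ratio of 0.0945 to 0.138 with cercosporamide was below the DMSO range of 0.158 to 0.432.

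SNHG15 had a log2 TE change of -0.93 ± 0.244 (edgeR adjusted p = 0.0112), and its replicates lay between -1.21 and -0.58. Its ratio was 0.326 to 0.393 in DMSO and 0.142 to 0.263 with cercosporamide. ZFAS1 changed by -0.95 ± 0.293 (edgeR adjusted p = 0.0287), with replicates 1 and 2 at -0.16 and -0.41 and replicates 3 and 4 at -1.60 and -1.73. The 4 ZFAS1 replicates agree in sign and differ widely in size. SNHG8 changed by -0.91 ± 0.284 (edgeR adjusted p = 0.0298), SNHG16 by -0.72 ± 0.228 (edgeR adjusted p = 0.0323) and SNHG6 by -0.96 ± 0.344 (edgeR adjusted p = 0.0583). SNHG6 in replicate 2 was at -0.11, against -1.49, -1.20 and -1.05 in the others. SNHG1 (-0.68 ± 0.335, edgeR adjusted p = 0.170) and SNHG3 (-0.74 ± 0.401, edgeR adjusted p = 0.219) each had 1 replicate of the opposite sign, replicate 4, at 0.09 and 0.16.

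All 7 called hosts had a lower ratio than DMSO in 4 of 4 replicates. For GAS5, SNHG5, SNHG8, SNHG15, SNHG16 and ZFAS1, 6 in all, the 4 ratios with cercosporamide lay below the 4 in DMSO without overlap, which held for 8% of all genes tested, while 10.9% lay above without overlap. Without replicate 1 the calls of SNHG6 (-0.76, edgeR adjusted p = 0.274) and SNHG8 (-0.74, 0.17) were lost, without replicate 2 that of SNHG16 (-0.67, 0.167) and without replicate 3 that of ZFAS1 (-0.75, 0.151). GAS5, SNHG5 and SNHG15 kept their calls in each fit that left out 1 replicate. The shallow polysome library of cercosporamide replicate 4 held 25 GAS5 reads and 35 SNHG5 reads. In the fit without cercosporamide replicate 4, SNHG12 also entered the test and 9 of 10 hosts were called, against 24.1% of all genes. Libraries also differed in how their counts trended with the GC content of genes, with Spearman's rho of 0.121 to 0.458 in DMSO polysomes and -0.332 to 0.168 in cercosporamide polysomes. With this trend removed, 8 of 9 hosts were called lower in TE, and 21.5% of all genes were called in either direction.

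Tested on its own, polysome-associated RNA was called lower with cercosporamide for SNHG3, SNHG5, SNHG1, GAS5, ZFAS1 and SNHG16, 6 of 9 hosts, against 13.8% of all genes called lower (32.2% in either direction). The median log2 change in polysomes was -0.666 over the hosts and -0.0097 over all genes. The changes were -0.94 for SNHG3 (edgeR adjusted p = 0.0436), -0.89 for SNHG5 (0.00259), -0.83 for SNHG1 (0.0246) and GAS5 (0.00672), -0.67 for ZFAS1 (0.0339) and -0.61 for SNHG16 (0.0248). SNHG6 at -0.51, SNHG15 at -0.42 and SNHG8 at -0.36 did not pass (edgeR adjusted p = 0.185 to 0.284). In total RNA no host was called with cercosporamide by edgeR or by DESeq2, against 0.381% of all genes (0.29% higher, 0.0912% lower), and 2 hosts, SNHG8 (0.54) and SNHG15 (0.49), passed an unadjusted p of 0.05. The median log2 change of the hosts in total RNA was 0.335, that of all genes -0.00611, and the hosts' median rested on single replicates, at -0.0337 without replicate 3, 0.14 without replicate 4 and 0.604 without replicate 2. SNHG3 and SNHG1 were thus called in polysomes but not in TE, and SNHG6, SNHG8 and SNHG15 were called in TE but not in polysomes. Without replicate 2 the polysome calls of SNHG1, SNHG16 and ZFAS1 were lost, and without replicate 1 those of SNHG1 and SNHG3. Without the term for replicate (the block), 4 hosts were called in polysomes, with SNHG1 (edgeR adjusted p = 0.434) and ZFAS1 (0.288) lost. That fit called 15.9% of all genes, against 32.2% with the block.

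**Figure D2:**
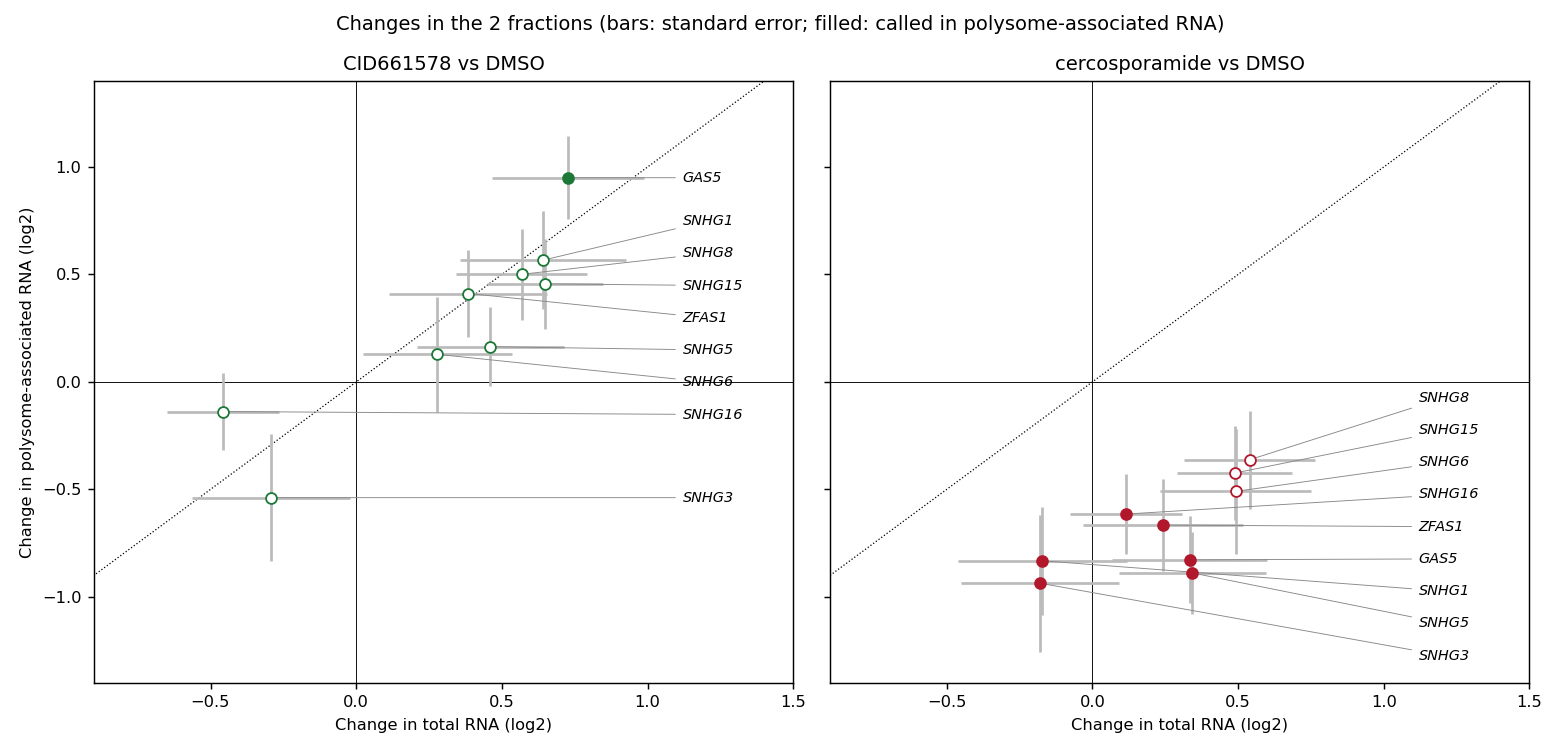
Log2 change against DMSO in total RNA (x axis) and in polysome-associated RNA (y axis), 1 point per tested host with SE bars, CID661578 and cercosporamide in separate panels; a filled point is called in polysome-associated RNA. With cercosporamide all 9 hosts lie below 0 on the y axis (-0.94 to -0.36), and with CID661578 7 hosts lie above 0 on both axes with GAS5 highest (0.73 in total RNA, 0.95 in polysomes).

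With CID661578, no change in the polysome share of a host was detectable, and GAS5 rose in polysomes. No host was called for TE by edgeR or DESeq2, none passed an unadjusted p of 0.05, and 0.207% of all genes were called, 0.00829% higher and 0.199% lower. The study fitted these libraries with another method, anota2seq, and reported mRNAs with altered translational efficiency under both compounds. That method was not run here, so the share of all genes called is not comparable with the study's counts. The median log2 TE change was -0.114 over the hosts (-0.294 to -0.0351 with 1 replicate left out) and 0.0315 over all genes. The estimates ran from -0.35 for SNHG5, with a 95% confidence interval of -0.93 to 0.23, to 0.32 for SNHG16, with an interval of -0.14 to 0.79. For GAS5 the estimate was 0.18 with an interval of -0.31 to 0.67. SNHG16 was higher in 4 of 4 replicates (0.17, 0.31, 0.10 and 0.71), and ZFAS1 was split, at 0.65 and 0.81 in replicates 1 and 2 and -0.71 and -0.95 in replicates 3 and 4.

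GAS5 in polysomes was 36.9, 44.7, 45.3 and 31.8 CPM in DMSO and 73.0, 75.4, 83.6 and 72.0 CPM with CID661578. All 4 treated libraries lie above all 4 DMSO libraries, and they vary less than the DMSO libraries relative to their mean. The share of all genes set apart in this way was not counted. The log2 change was 0.95 ± 0.193 (SE, edgeR adjusted p = 0.00783), and GAS5 was the 1 host called of 9, against 6.16% of all genes called higher and 10.1% in either direction. Without the replicate block the GAS5 estimate was 0.94 and its edgeR adjusted p was 0.2, in a fit that called 0.572% of all genes. SNHG1 (0.57, edgeR adjusted p = 0.178), SNHG8 (0.50, 0.200) and SNHG15 (0.46, 0.237) passed an unadjusted p of 0.05 only, SNHG3 was at -0.54 (0.323), and the remaining hosts lay between -0.14 and 0.41. DESeq2 called SNHG1 as well.

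In total RNA, GAS5 was 157, 218, 137 and 89.2 CPM in DMSO and 299.9, 233, 287 and 177 CPM with CID661578, with ranges that overlap through the DMSO replicate 2. SNHG15 was 103 to 173 CPM in DMSO and 190, 224, 301 and 221 CPM with CID661578, without overlap, and the share of all genes without overlap was not counted. No host passed the test (edgeR adjusted p of 0.38 for SNHG15, 0.546 for GAS5 and up to 0.911), while 0.448% of all genes did, 0.315% higher and 0.133% lower, and DESeq2 called SNHG15. At an unadjusted p of 0.05, 4 hosts were higher and SNHG16 was lower, at -0.46 (edgeR adjusted p = 0.629). The median log2 change over the hosts was 0.461, that of all genes -0.0112, and the hosts' median was 0.186 without replicate 3 and 0.718 without replicate 2. SNHG16 was thus the host with the lowest total RNA estimate and the highest TE estimate with CID661578, neither of them called. TE is taken against the same total RNA, so these estimates are linked. Its polysome estimate was -0.14 (edgeR adjusted p = 0.722).

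The TE changes with the compounds were compared directly in the same fit, over 9 hosts and adjusted over all genes. The contrast does not take DMSO as its reference, but its spread and normalization come from all 24 libraries, DMSO among them. TE was called higher with CID661578 than with cercosporamide for 6 of 9 hosts, against 7.93% of all genes called higher, 7.57% lower and 15.5% in either direction. The median difference was 0.818 on the log2 scale over the hosts and -0.0305 over all genes. GAS5 differed by 1.35 (edgeR adjusted p = 0.00541) and SNHG16 by 1.04 (0.0114). SNHG5 (0.91, edgeR adjusted p = 0.0562), ZFAS1 (0.90, 0.0654), SNHG15 (0.74, 0.0697) and SNHG8 (0.82, 0.0839) followed. SNHG6 did not pass, with a difference of 0.78 and a 95% confidence interval of 0.07 to 1.48 (edgeR adjusted p = 0.179). SNHG1 (0.57, interval -0.12 to 1.26) and SNHG3 (0.52, interval -0.32 to 1.36) did not pass either. At an edgeR adjusted p below 0.05, GAS5 and SNHG16 were the 2 called, and 6.1% of all genes were called. SNHG5, SNHG8 and SNHG15 were not called without replicate 1 or without replicate 2, ZFAS1 not without replicate 2 (0.276) or without the shallow cercosporamide library (0.162).

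**Figure D3:**
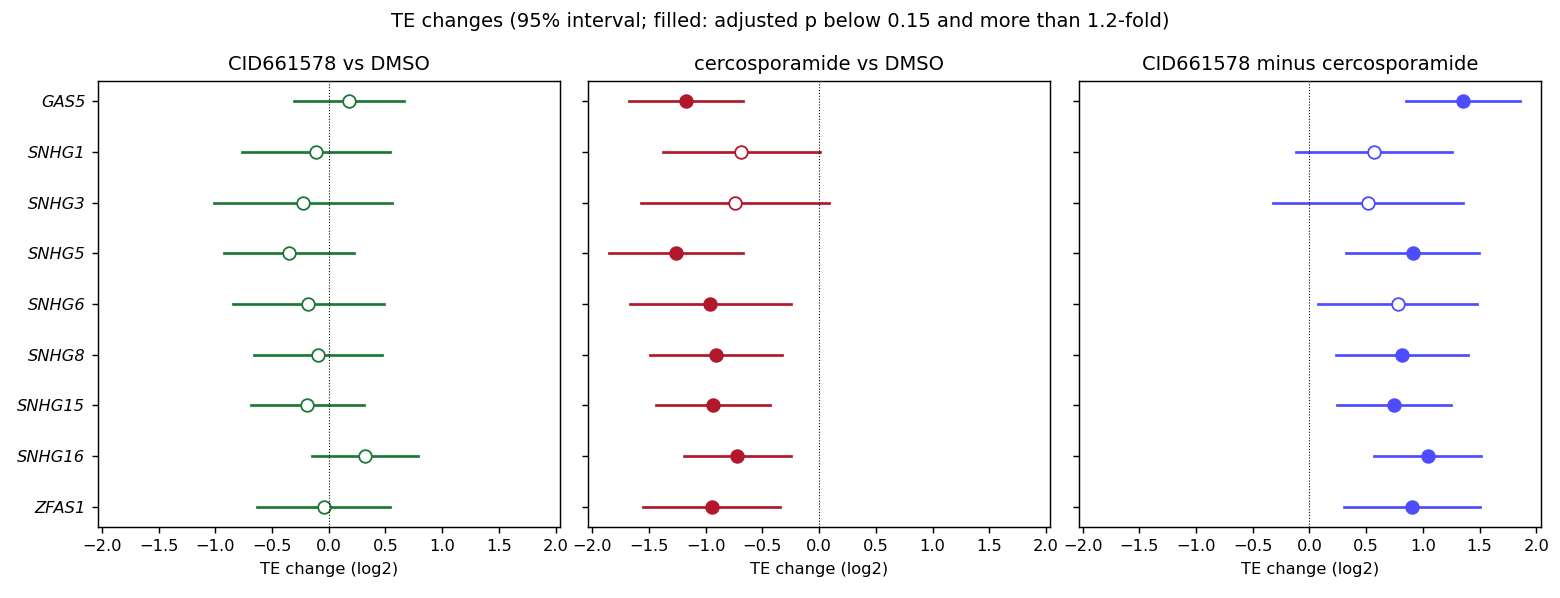
Log2 TE change (x axis) of each tested host with CID661578, with cercosporamide and of CID661578 minus cercosporamide, in 3 panels. Points are estimates, bars 95% confidence intervals and filled points are called. The cercosporamide estimates of all 9 hosts lie below 0 (-1.26 to -0.68), while those with CID661578 scatter around it (-0.35 to 0.32).

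SNHG12, host of 3 SNORA genes and SNORD99, was the scarcest member and the one outside the test. Its raw counts in DMSO were 41, 58, 30 and 26 in total RNA and 19, 15, 10 and 29 in polysomes. In polysomes they were 7, 13, 11 and 5 with CID661578 and 5, 3, 5 and 0 with cercosporamide, the last in the shallow library. Polysome CPM with cercosporamide (0.453 at most) stayed below that of DMSO (0.933 at least), and the share of all genes doing so was not counted. With the filterByExpr filter in place of the zero-count filter, its log2 TE change with cercosporamide was -2.02 ± 0.744 (SE, edgeR adjusted p = 0.0706) and its DMSO polysome-to-total ratio -1.13 (edgeR adjusted p = 0.0445). With CID661578 the TE change was -0.90 (edgeR adjusted p = 0.733).

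Of 22 other non-coding snoRNA hosts listed, 12 were tested, and in DMSO 11 were lower in polysomes with a median log2 ratio of -1.24. The share of all genes called lower was 29.6%. DANCR, host of SNORA26 in an intron, was at -2.49 ± 0.204 (edgeR adjusted p = 1.66e-09), CYTOR at -1.96 and SNHG29 at -1.81. With cercosporamide 8 of the 12 were called lower in TE and none higher, with a median of -0.81, against 12.6% of all genes called lower. SNHG29 changed by -1.42 ± 0.283 (edgeR adjusted p = 0.00168), DANCR by -0.94 and CYTOR by -0.89. None was called with CID661578, where 1, SNHG32, passed an unadjusted p of 0.05, and in the test of the compounds against each other all 12 estimates were above 0, with 7 called higher for CID661578 and none lower.

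Of 13 long non-coding RNAs listed that host no snoRNA, 10 were tested, and in DMSO 7 were lower in polysomes and 2 higher, with a median of -1.67 against -1.73 for the member hosts. The shares of all genes were 29.6% lower and 26.4% higher. OIP5-AS1 was at -2.05 and HOTAIRM1 at -1.83. With cercosporamide none of the 10 was called lower in TE, against 12.6% of all genes, and the median of the 10 was -0.539. MALAT1, a nuclear speckle RNA, was called higher by 1.46 ± 0.367 (edgeR adjusted p = 0.00864). Its total RNA estimate was -1.31 (edgeR adjusted p = 0.151, not called). In polysomes none of the 10 was called higher, and the highest estimate was 0.323. The difference between these lists was not tested.

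Ribosomal protein mRNAs, the classic TOP mRNAs, were lower in polysomes in DMSO for 52 of 80 and higher for 2, with a median of -0.505. The shares of all genes were 29.6% lower and 26.4% higher. With cercosporamide 57 of 80 were called lower in TE and none higher, with a median of -0.694, against 12.6% of all genes called lower. RPLP1, of the ribosomal stalk, fell by 1.68 on the log2 scale (edgeR adjusted p = 0.000144). RPS27 was at -1.46, RPL28 at -1.45 and RPL30 at -1.45. None was called with CID661578 for TE, where the median was -0.292 and 6 passed an unadjusted p of 0.05, and in the test of the compounds against each other 69 of 80 estimates were above 0 (median 0.437), with 26 called higher for CID661578 and none lower. In total RNA with cercosporamide 5 ribosomal protein mRNAs were called higher, against 0.29% of all genes, among them RPL39 (0.92, edgeR adjusted p = 0.144). Protein-coding snoRNA hosts, of which 37 were tested and many encode ribosomal proteins or translation factors, were divided, with 7 higher and 13 lower in TE with cercosporamide (median -0.297). The shares of all genes were 15.8% higher and 12.6% lower. RPS12 (-1.47) and RPL12 (-1.34) fell and IPO7, an importin, rose by 1.23.

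The TE change was also set beside the pyrimidine run over the annotated start. Such a run can include bases before the start. In SNHG8 only 1 base of the run of 6 lies from the start on, and in SNHG1 3 of 5 do. The stricter TOP form was not set beside TE, so how TOP RNAs as such changed was not tested. Among tested genes outside the members, 771 had a run of at least 5 bases, and their median log2 TE change with cercosporamide was -0.0481, with 17.6% called lower. Without ribosomal protein genes, 725 remained with a median of 0.00963 and 13.8% called lower, against 0.0406 and 11.2% for 7768 genes without such a run. Within the hosts, SNHG5 (a run of 6) and GAS5 (no run) had the lowest estimates, -1.26 and -1.17, and SNHG1 (a run of 5) and SNHG16 (none) the highest, -0.68 and -0.72. These runs are those of the annotated starts, and the starts used in PANC-1 were not measured. GAS5 and SNHG16 are therefore not shown to lack a TOP start.

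Of 18 snoRNP core and assembly factors, 6 were called higher and 2 lower in TE with cercosporamide (median 0.392). Of all genes tested, 15.8% were called higher and 12.6% lower. NOP58, a core protein of box C/D snoRNPs, rose by 1.99 ± 0.24 (edgeR adjusted p = 3.52e-05), RPAP3, of the R2TP assembly chaperone, by 1.84, ZNHIT6 by 1.04 and NOLC1, a snoRNP chaperone of the nucleolus, by 0.98. With CID661578 none was called for TE, and 3 passed an unadjusted p of 0.05. Among 18 tested NMD factors, 4 were called higher and 1 lower in TE with cercosporamide, including UPF3B at 1.35 and SMG5 at -0.94. That is 5 of 18 in either direction, near the 28.4% of all genes. In DMSO 12 of the 18 were higher in polysomes and 1 lower, against 26.4% and 29.6% of all genes. NBAS was among the higher, at 1.45.

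With CID661578, 4 of 15 mRNAs known as NMD substrates were called higher in total RNA and none lower, with a median log2 change of 0.38. Of all genes tested, 0.315% were called higher. DDIT3 rose by 1.90 ± 0.294 (edgeR adjusted p = 0.00551), ATF3 by 1.93 (0.0135), ATF4 by 1.13 (0.0408) and UPP1 by 0.98 (0.0658). ATF4, ATF3 and DDIT3 are transcription factors of the integrated stress response, which are induced by other routes too. With cercosporamide 0 of 15 passed in total RNA by edgeR, and 0 passed an unadjusted p of 0.05.

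Across the 24 libraries the profile of each host followed the mean profile of the 9 with Spearman's rho from 0.691 (SNHG1) to 0.977 (GAS5), to which every host itself contributes. Pairs of hosts correlated with a median rho of 0.813 over all libraries, 0.437 within total RNA and 0.703 within polysomes (36 pairs), where 12 libraries of each fraction share 3 treatments and 4 replicates. The genes outside the members most like that profile were TOMM7, of the mitochondrial import pore (0.971), APTR, a non-coding RNA (0.962), GTF2H5, of the repair and transcription factor TFIIH (0.96), PFN2, a profilin (0.96), and RPS20 (0.958), itself an intronic snoRNA host. These are descriptions over 24 libraries, most of whose spread lies between the fractions.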

How the data were processed

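Per the labels and the study's methods, the authors prepared Smart-seq2 libraries, discarded adapters and rRNA reads using BBDuk, mapped to hg38 using HISAT2 and ran featureCounts over RefSeq genes at its defaults, which ignore strand. The counts deposited by the authors are raw and cover 54583 genes in 24 libraries of 1592459 to 12184749 reads, which limits precision for SNHG12 and SNHG3. The members and all lists were chosen with earlier results of these data known.

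The filter kept the 12058 genes with reads in every library, and edgeR 4.0.16 (R 4.3.3) was run with TMM and the quasi-likelihood test. The TE model had a term per lysate, a term per replicate in each fraction and a TE term per compound (residual df 6). Fractions were also tested separately with replicate as a block, after the study's methods. The check of this pairing gave 13 of 16 correlations with the DMSO library of the same number above 0.1 (-0.016 to 0.551). For 12 of the 16, that DMSO library was the best match. The exceptions were the polysome libraries of replicates 1 and 4 with either compound. Any pair of libraries differed beyond sampling noise (chi-square per df of at least 9.81). The study names the replicates biological.

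On simulated counts the TE fit recovered 78.9% of 194 genes changed by 1.5 on the log2 scale for cercosporamide and called 26 of 11525 unchanged genes. These counts had the same spread setting for all genes and no lysate or replicate effects. The change of 1.5 is larger than the TE estimate of every tested host, so recovery of changes of the hosts' size was not tested. Genes were called at an adjusted p below 0.15 and over 1.2-fold. All members were named. From every other list at most 4 called genes with the smallest adjusted p per comparison qualified, or 2 with the smallest p where none was called, and not all of these are described. Alternatives were DESeq2 1.42.0, its size factors, TMM within each fraction, filterByExpr, no filter, removal of the GC trend of each library, no replicate block, an adjusted p below 0.05 and each replicate left out.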

Additional observations from a re-analysis of the deposited data

Results flagged for a closer look

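Among 90 sets of 4 libraries (10 hosts, both fractions, and their ratios), 6 had a replicate set apart from the other 3 by Dixon's test, where chance gives about 1 in 20. In polysomes these were GAS5 with cercosporamide in replicate 3 (38.6 CPM) and SNHG5 in DMSO in replicate 2 (68.7 CPM). In total RNA they were SNHG1 in replicate 3 with CID661578 (61.8 CPM) and with cercosporamide (54.0 CPM), ZFAS1 with cercosporamide in replicate 3 (231 CPM) and SNHG6 in DMSO in replicate 2 (37.8 CPM). Of the 6 values, 4 are of replicate 3 and all 6 are the highest of their set. Whether replicate 3 differs in a technical way was not tested.

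The TE changes with CID661578 and cercosporamide differed by edgeR's test of the difference, adjusted over all genes, for 6 hosts, higher with CID661578 in each. Of all genes tested, 7.93% were called higher with CID661578 and 15.5% in either direction. The log2 differences were 1.35 for GAS5 (adjusted p = 0.00541), 1.04 for SNHG16 (0.0114), 0.91 for SNHG5 (0.0562), 0.90 for ZFAS1 (0.0654), 0.74 for SNHG15 (0.0697) and 0.82 for SNHG8 (0.0839). The doses were 40 µM and 5 µM.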

How the results depend on the processing

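Of 936 values of members under 13 settings, 864 kept their direction and their side of the threshold, 32 lost a call, 27 gained one and 13 changed sign, all 13 for members without a call. The number of members called for the TE difference between the compounds was 2 at an adjusted p below 0.05 (6.1% of all genes called). It was 2 to 7 with 1 replicate left out (3.22% to 13.9% of all genes). For total RNA with CID661578 it was 1 with DESeq2 (1.38% of all genes) and 1 without a filter (0.811%). With the GC trend removed it was 2 (1.98%, against 0.448% in the main fit). For total RNA with cercosporamide it was 3 with the GC trend removed (6.28%, against 0.381%). For polysomes with CID661578 it was 2 with DESeq2 (12.7%) and 0 without the replicate block (0.572%, against 10.1%). For polysomes with cercosporamide it was 3 to 8 with 1 replicate left out (21.8% to 26.8%, against 32.2%). Without the replicate block SNHG1 in total RNA with cercosporamide was at 0.17, and the block changed no other call than those given with the results. With the GC trend removed SNHG6 in polysomes with CID661578 was at -0.10. With 1 replicate left out, TE with CID661578 ran from -0.30 to 0.0392 for SNHG8, -0.34 to 0.24 for ZFAS1 and -0.33 to 0.0302 for SNHG1. Total RNA with cercosporamide ran from -0.61 to 0.0546 for SNHG1, -0.0709 to 0.74 for GAS5, -0.0337 to 0.24 for SNHG16 (-0.0238 without the shallow library) and -0.14 to 0.60 for ZFAS1, and SNHG6 in polysomes with CID661578 from -0.0277 to 0.19. Among all genes, the TE calls with cercosporamide were 1907 higher and 1515 lower, and 1118 and 1469 with the GC trend removed. In polysomes they were 2212 and 1669, and 1891 and 2151 with DESeq2's size factors. The TE difference gave 956 and 913, and 1145 and 710 with those size factors, and DMSO polysome to total 3178 and 3570, and 4728 and 2459 with TMM within each fraction. The causes of these differences were not tested. Depth limits SNHG12 and SNHG3, with at most 58 and 134 counts in a library.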
